A study of Homo sapiens with 12 samples.

Results

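CEACAM1, CEACAM5, CEACAM6 and CEACAM7 are cell adhesion genes of the carcinoembryonic antigen family, and 12 probe sets of the expression array belong to them, out of 54613 probe sets that are not controls (4 of 19775 genes). A probe set was taken as a member where the platform annotation gives it exactly 1 gene symbol and that symbol is among the 4 genes. CEACAM1 has 5 such probe sets, CEACAM5 has 2, CEACAM6 has 2 and CEACAM7 has 3, and 0 further probe sets name a member beside another gene. The genes were picked with the difference between low-dose nanoparticles and silver ions in view, so that difference is given as a description with no test.

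RNA came from Caco-2, a long-established line from a human colon tumour whose confluent cultures take on enterocyte features, differentiated for 21 days after confluence at passage 22. For 24 h the cells received medium alone, surfactant-coated silver nanoparticles (AgPURE) at 2.5 µg/mL, the same particles at 25 µg/mL, or silver ions as AgNO3 at 0.5 µg/mL. All 4 groups of 3 arrays had the same medium with insulin, transferrin and selenium and antibiotics. No group with the surfactant alone was analysed here, the labels do not name the 3 samples of a group as separate cultures, and p-values therefore measure only the spread between these samples, which may be technical.

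CEACAM proteins carry immunoglobulin-like domains on the cell surface and bind one another on neighbouring cells. CEACAM1 spans the membrane, and its long-tailed forms hold inhibitory tyrosine motifs that recruit the phosphatases encoded by PTPN6 and PTPN11. CEACAM5 (carcinoembryonic antigen, a serum marker of colorectal cancer), CEACAM6 and CEACAM7 are held by a lipid (GPI) anchor and sit on the luminal surface of colonic epithelial cells, where several bacteria use family members as receptors.

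The genes lie on the same chromosome arm and are close relatives, which is why the sequences before their starts are shown. In GRCh38.p14 the RefSeq annotation places CEACAM7 at chr19:41673303-41688270, CEACAM5 at chr19:41708626-41730519, CEACAM6 at chr19:41755530-41772211 and CEACAM1 at chr19:42507306-42528481. The promoter table held all 4 members. Each line gives the 250 bases before the annotated start, 5′ to 3′ on the strand of the gene. Capitals mark CACGTG, the core of the E-box bound by USF-type factors, and GGGCGG or its complement, the GC box bound by SP1.

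CEACAM6 (chr19:41755280-41755529, plus strand): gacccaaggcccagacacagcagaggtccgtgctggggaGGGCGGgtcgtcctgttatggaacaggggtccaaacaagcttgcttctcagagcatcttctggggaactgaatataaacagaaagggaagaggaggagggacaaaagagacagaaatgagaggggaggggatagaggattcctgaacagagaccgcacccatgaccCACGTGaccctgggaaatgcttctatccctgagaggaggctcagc
CEACAM5 (chr19:41708376-41708625, plus strand): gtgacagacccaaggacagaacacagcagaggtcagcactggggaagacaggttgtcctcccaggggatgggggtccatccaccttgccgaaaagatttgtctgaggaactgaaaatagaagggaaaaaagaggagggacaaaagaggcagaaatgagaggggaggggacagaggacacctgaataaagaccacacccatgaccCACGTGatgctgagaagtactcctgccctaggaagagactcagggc
CEACAM7 (chr19:41688271-41688520, minus strand): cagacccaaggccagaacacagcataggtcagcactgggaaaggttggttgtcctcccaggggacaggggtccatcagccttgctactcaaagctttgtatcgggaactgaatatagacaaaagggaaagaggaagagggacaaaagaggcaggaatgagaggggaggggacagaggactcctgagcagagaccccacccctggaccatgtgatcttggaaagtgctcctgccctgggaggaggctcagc
CEACAM1 (chr19:42528482-42528731, minus strand): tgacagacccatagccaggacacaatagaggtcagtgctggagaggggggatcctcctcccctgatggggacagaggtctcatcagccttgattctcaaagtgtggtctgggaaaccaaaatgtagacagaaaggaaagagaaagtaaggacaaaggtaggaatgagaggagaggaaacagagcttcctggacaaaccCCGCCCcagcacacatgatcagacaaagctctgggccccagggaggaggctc

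Aligned end to end, these stretches were identical at between 66.2% of aligned columns, for CEACAM1 and CEACAM5, and 80.5%, for CEACAM5 and CEACAM7. CEACAM6 shared 79.9% of columns with CEACAM7, 74.6% with CEACAM5 and 68.2% with CEACAM1. The E-box core stood 46 to 41 bases before the start of CEACAM5 and 45 to 40 bases before that of CEACAM6, and these letters were not found in the other two windows. Of 35116 promoters in the table, 6.34% held CACGTG in the same 250 bases and 42.6% held GGGCGG on either strand. The GC box letters lay 52 to 47 bases before CEACAM1 and 211 to 206 bases before CEACAM6. Searched on both strands, TGANTCA (AP-1), GAANNTTC (heat shock element), TGCNCNC (metal response element) and TGACNNNGC (antioxidant response element) had 0 matches in the 4 windows, against 6.57%, 5.78%, 49.1% and 10.9% of all promoters. TATAAA was found in the CEACAM6 window alone, 139 to 134 bases before the start, and in 10.7% of all promoters. No motif here overlaps another, and a match describes letters only.

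With the deposited values, expression of CEACAM6 lay below medium at the low nanoparticle dose (2.5 µg/mL) and above medium at the high dose (25 µg/mL). On probe set 211657_at the log2 values in medium were 10.17, 9.92 and 10.17, those at the low dose 9.67, 9.63 and 9.63, those with ions 10.05, 10.20 and 10.10, and those at the high dose 10.68, 10.64 and 10.60. The 2.5 µg/mL arrays lay below every other array, the 25 µg/mL arrays above every other array, and the ion arrays overlapped medium. On the second CEACAM6 probe set, 203757_s_at, medium gave 9.57, 9.30 and 9.55, the low dose 9.06, 8.99 and 9.16, ions 9.41, 9.43 and 9.49, and the high dose 10.01, 9.86 and 9.81. It showed the same separation, and over the 12 arrays the values of both probe sets had a Pearson r of 0.98, a description over arrays that share their groups.

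**Figure D1:**
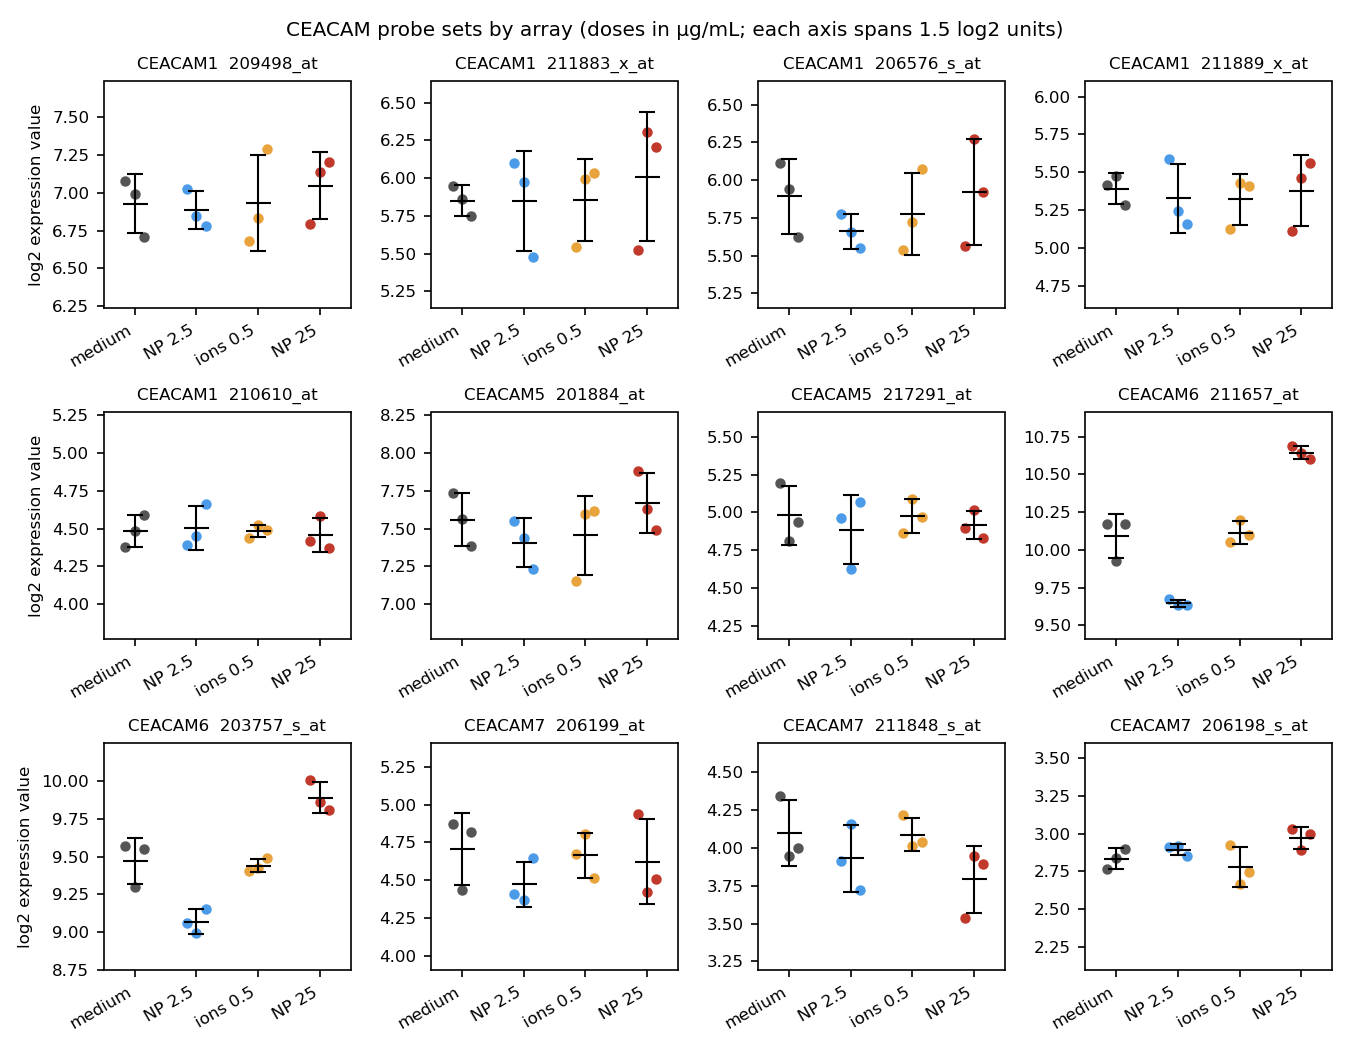
Log2 expression values of the 12 CEACAM probe sets on every array, by group, with bars for the group mean ± SD (n = 3). Both CEACAM6 probe sets have their lowest values at 2.5 µg/mL nanoparticles and their highest at 25 µg/mL, while every exposure overlaps medium for the probe sets of the other genes.

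At 25 µg/mL CEACAM6 rose 1.47-fold against medium on 211657_at (log2 difference 0.55 ± 0.09 SE, 95% interval 0.36 to 0.75, limma adjusted p = 0.000319) and 1.34-fold on 203757_s_at (0.42 ± 0.10, 0.21 to 0.63, limma adjusted p = 0.00477), values relative to the authors' normalization that became -0.06 and -0.20 when arrays were scaled on the poly-A control probe sets and 0.13 and -0.01 on the hybridization controls. The calls were lost under both scalings. These scalings also moved the median difference of all probe sets from 0.01 to -0.60 and -0.42. They subtract the same value from every probe set of an array. The distance of CEACAM6 from that median therefore cannot change under them and is no separate evidence. Group means of 211657_at were 10.09 ± 0.14 (SD, n = 3) in medium and 10.64 ± 0.04 at 25 µg/mL. Of the 12 member probe sets, 2 were called higher and 0 lower by limma at an adjusted p under 0.05, and 1 had an unadjusted p under 0.05 in the lower direction. Of all probe sets, 12.5% were called higher and 13.4% lower in this comparison, 25.9% in either direction, against 16.7% of the members. The median log2 difference of the 12 was 0.07. Groups did not overlap for these 2 probe sets, as for 39% of all probe sets (19.1% higher and 19.9% lower).

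**Figure D2:**
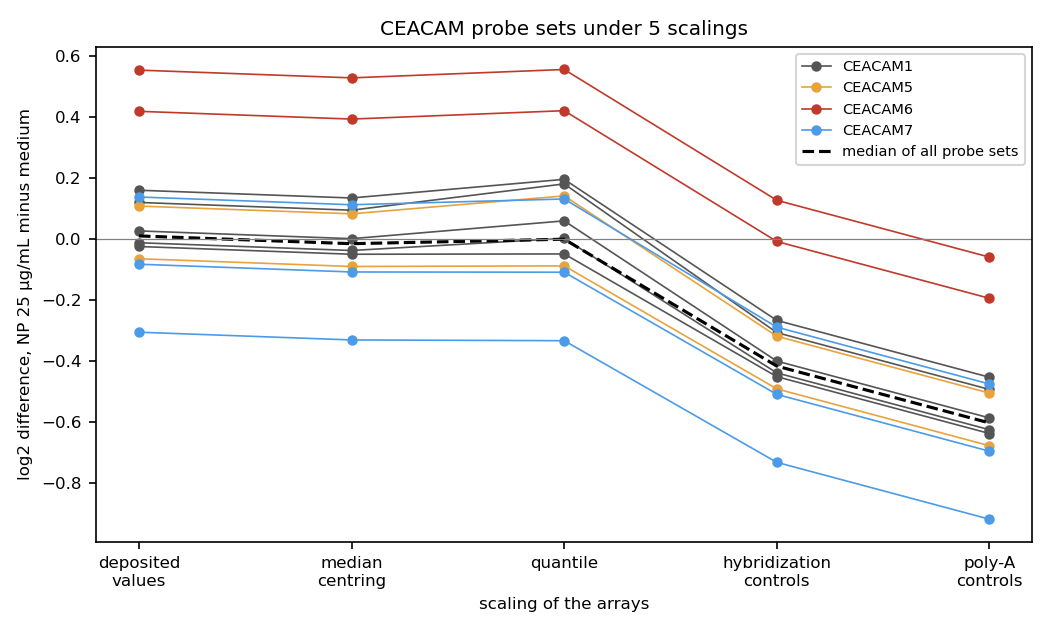
Log2 difference between 25 µg/mL nanoparticles and medium for each CEACAM probe set under 5 ways of scaling the arrays, with the median of all probe sets as a dashed line. CEACAM6 lies above that median throughout, at 0.55 and 0.42 with the deposited values and at -0.06 and -0.20 under poly-A scaling. Median centring and scaling on controls cannot change its distance from that median.

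The contrast of the low nanoparticle dose with ions served to choose the genes, and its values are a description. On 211657_at the 2.5 µg/mL mean was 9.65 ± 0.02 and the ion mean 10.11 ± 0.07 (SD, n = 3), a log2 difference of -0.47 ± 0.09 (SE) or 1.38-fold lower with particles. On 203757_s_at it was -0.37 ± 0.10, with means of 9.07 and 9.44. These 2 of 12 member probe sets had groups that did not overlap, as did 12.7% of all probe sets between these groups (6.76% lower and 5.96% higher with particles). Without ion replicate 1 (numbered in accession order, as all replicates here) the count was 4. Groups of fewer arrays separate more readily, and the share of all probe sets was not computed for that reduced set. The other 10 probe sets had differences from -0.19 to 0.11, and 7 of these lay below 0. The doses of particles and ions differ, so particle and ionic silver are not matched in amount here.

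Against medium, CEACAM6 at 2.5 µg/mL had log2 differences of -0.44 ± 0.09 (SE) and -0.40 ± 0.10 on the same probe sets, with no overlap on either. These arrays also entered the choice of the genes, so no test is given. Groups did not overlap for 9.89% of all probe sets in this contrast, 4.91% lower and 4.99% higher. With ions, all 12 member probe sets lay between -0.12 and 0.02 of medium, and 0 had groups that did not overlap, against 11% of all probe sets (5.36% higher and 5.69% lower). From 2.5 to 25 µg/mL the CEACAM6 means differed by 1.00 and 0.82 on the log2 scale, or 1.99-fold and 1.77-fold. From low to high the groups with the deposited values thus ran 2.5 µg/mL, then medium and ions, which did not differ beyond their spread, then 25 µg/mL. Scaled on poly-A controls, 211657_at differed from medium by -0.31 at 2.5 µg/mL, -0.06 at 25 µg/mL and 0.20 with ions. The values for 203757_s_at were -0.27, -0.20 and 0.14, so only the low place of 2.5 µg/mL remained.

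**Figure D3:**
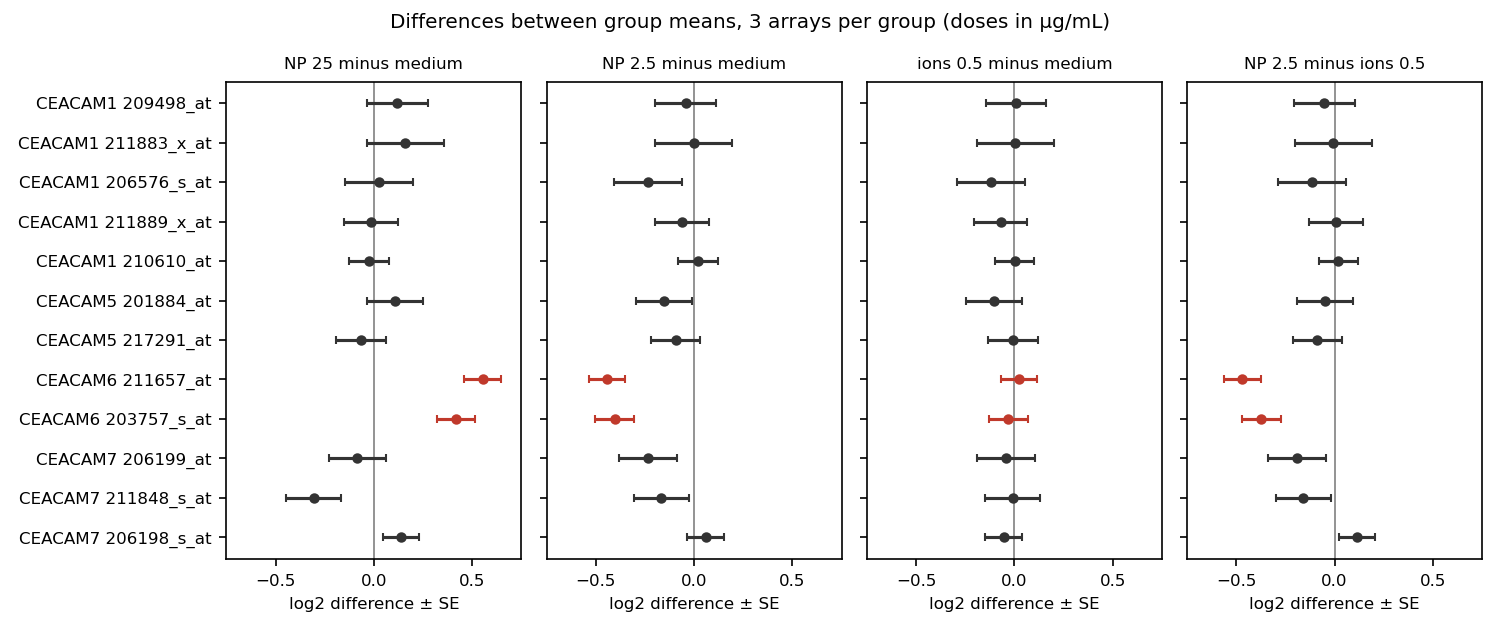
Log2 differences ± SE between group means for the 12 CEACAM probe sets in 4 contrasts, with CEACAM6 in red. CEACAM6 stands at 0.55 and 0.42 at 25 µg/mL, at -0.44 and -0.40 at 2.5 µg/mL, and within 0.03 of 0 with ions.

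CEACAM5, the classical carcinoembryonic antigen, did not separate the groups. On 201884_at medium gave 7.73, 7.56 and 7.38, the low dose 7.55, 7.44 and 7.23, the high dose 7.88, 7.63 and 7.49, and ions 7.16, 7.60 and 7.61. All groups overlapped, with ion replicate 1 the lowest array and 25 µg/mL replicate 1 the highest. The difference between 25 µg/mL and medium was 0.11 ± 0.14 (SE, 95% interval -0.20 to 0.41, limma adjusted p = 0.665). On this probe set the group means ran in the order 2.5 µg/mL, ions, medium and 25 µg/mL, with no neighbours apart beyond their spread. Its second probe set, 217291_at, ranged from 4.63 to 5.19 over the arrays, near the median of all deposited values, 4.75, and had a difference of -0.07 ± 0.13 (limma adjusted p = 0.776).

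CEACAM1, the transmembrane member, spread more between arrays of 1 group than between groups. On 209498_at medium gave 7.08, 6.99 and 6.71, the low dose 7.02, 6.85 and 6.78, the high dose 6.80, 7.14 and 7.21, and ions 6.68, 6.83 and 7.29. Ion replicates 1 and 3 were the lowest and the highest of all 12 arrays. The difference between 25 µg/mL and medium was 0.12 ± 0.15 (SE, 95% interval -0.21 to 0.45, limma adjusted p = 0.654), and over the other 4 CEACAM1 probe sets it ranged from -0.03 for 210610_at to 0.16 for 211883_x_at, whose interval reached 0.58. Group means on 209498_at ran from 6.88 at 2.5 µg/mL through 6.93 in medium and 6.94 with ions to 7.05 at 25 µg/mL, all within the spread of the groups. Probe sets of CEACAM1, CEACAM6 and CEACAM7 with names ending in _s_at or _x_at can bind transcripts of other genes, and paralogs of this family are close in sequence, so their values may hold signal of relatives.

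The array-to-array deviations of CEACAM1 were shared by most of its probe sets. On 211883_x_at the values at 25 µg/mL were 5.52, 6.30 and 6.21, and on 206576_s_at they were 5.57, 6.27 and 5.92, with replicate 1 lowest on both. Over the 12 arrays, deviations from the group means correlated with r between 0.70 and 0.89 in the 6 pairs among the 4 brighter CEACAM1 probe sets, which were singled out after their values were seen. The fifth, 210610_at, which ranged from 4.37 to 4.67, had r between -0.30 and -0.07 with these. For 209498_at the same deviations had r = -0.62 with the array median and r = 0.28 with the ACTB 3′ minus 5′ difference, a sign of RNA integrity. For CEACAM6 211657_at these r values were 0.30 and 0.18, and for 203757_s_at 0.38 and 0.54. With the mean of the hybridization controls, r was 0.34 for 209498_at, 0.57 for 211657_at and 0.35 for 203757_s_at. The part of these measures in the deviations was not tested. The deviations of CEACAM5 201884_at and CEACAM1 209498_at had r = 0.37, and those of the CEACAM6 pair r = 0.74. These are descriptions over 12 arrays that share their normalization.

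**Figure D4:**
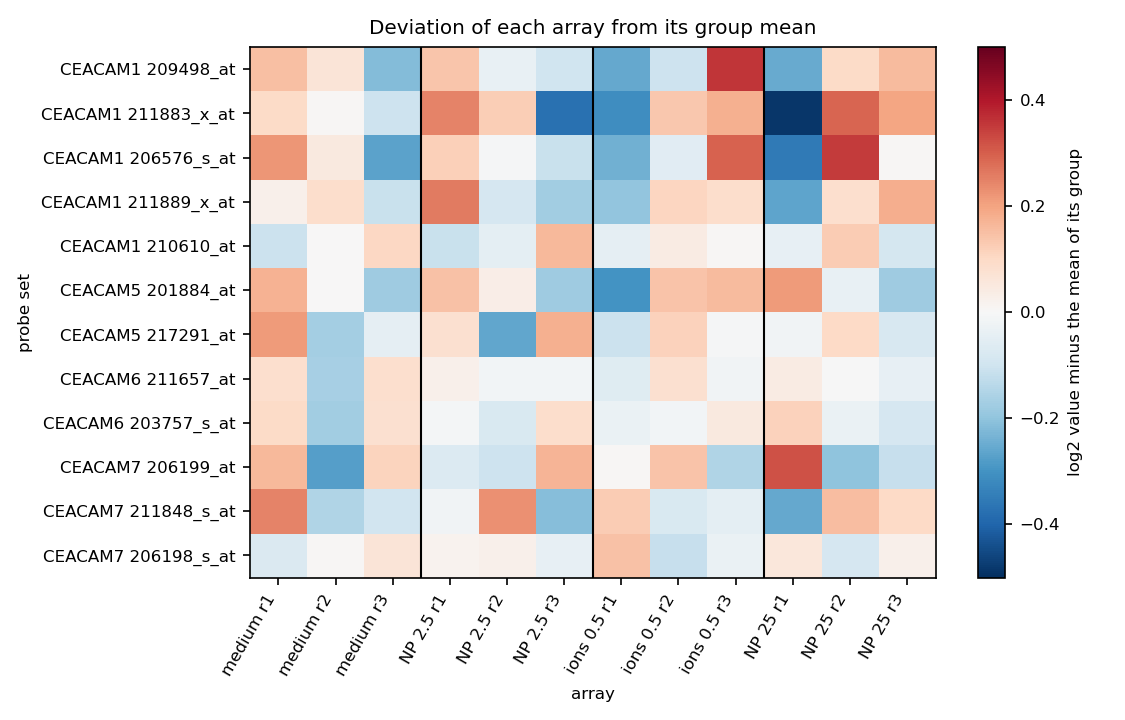
Log2 value of each CEACAM probe set on each array minus the mean of its group, with arrays in columns grouped by exposure. The upper 4 CEACAM1 rows deviate together, as at 25 µg/mL replicate 1, where 211883_x_at lies 0.49 below its group mean. Row 209498_at deviates most at ion replicate 3, 0.36 above its group mean. The CEACAM6 rows stay closer to their group means than the upper 4 CEACAM1 rows, as do CEACAM1 210610_at and CEACAM7 206198_s_at.

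CEACAM7, a GPI-anchored member known to be lost early in colorectal tumours, was dim. All 3 of its probe sets had means below the median of all values. On 206199_at medium gave 4.87, 4.43 and 4.82, the low dose 4.41, 4.37 and 4.64, the high dose 4.94, 4.42 and 4.51, and ions 4.67, 4.81 and 4.51, so all groups overlapped. On 211848_s_at the medium values ran from 3.95 to 4.35 and the high-dose values from 3.54 to 3.95, with a log2 difference of -0.31 ± 0.14 (SE, limma unadjusted p = 0.0455, adjusted p = 0.134). Probe set 206198_s_at, from 2.66 to 3.03, stood in percentile 0.125 of all probe sets and had a difference of 0.14 ± 0.09 (limma adjusted p = 0.336). The CEACAM7 probe sets thus had differences of both signs. The table has no detection calls, so whether these values exceed background is unknown, and folds of CEACAM7 are not given.

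Within each array, the brightest probe set of CEACAM6 was set against that of CEACAM5, of CEACAM1 and of CEACAM7. Scaling of whole arrays leaves such a log2 ratio as it is, and only its shift between groups is read. CEACAM6 minus CEACAM5 was 2.44, 2.36 and 2.79 in medium and 2.80, 3.01 and 3.11 at 25 µg/mL, a mean shift of 0.45 without overlap (two-sided exact permutation test, p = 0.10, the smallest that this test can give with 3 against 3 arrays). CEACAM6 minus CEACAM1 shifted by 0.43 with overlap between the groups (exact permutation p = 0.20). CEACAM6 minus CEACAM7 shifted by 0.64 without overlap (exact permutation p = 0.10), with CEACAM7 dim and its background unknown. None passed 0.05, which this test cannot reach with 3 against 3 arrays. The test therefore cannot decide whether CEACAM6 and these relatives differed in their response.

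Genes whose pattern over the 12 arrays was most like that of CEACAM6 were TOMM22 (r = 0.95), DNAH12 (r = 0.95), B3GLCT (r = 0.94), COPRS (r = 0.94) and DGKK (r = 0.94). Without the 25 µg/mL arrays these r values were 0.86, 0.90, 0.86, 0.80 and 0.84 over 9 arrays. The 5 had log2 differences between 0.20 for TOMM22 and 0.69 for DGKK at 25 µg/mL and between -0.26 for DNAH12 and -0.06 for COPRS at 2.5 µg/mL. For CEACAM1 the list was AGR2 (r = 0.91), ARL16, LYRM1, SLX9 and TMCO4, for CEACAM5 it was TTF2 (r = 0.88), SMKR1, TDP2, MRPL2 and KCNJ14, and for CEACAM7 it was TBR1 (r = 0.93), PGLYRP4, RHOXF1, CFAP276 and RUNDC3A-AS1. These are the highest of 19774 other genes each, so high values are part of the selection.

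Other members of the family did not pass the test at 25 µg/mL. Of 14 measured other CEACAM and pregnancy-specific glycoprotein (PSG) genes, with 1 probe set per gene, limma called 0 higher and 0 lower, 1 had an unadjusted p under 0.05, and the differences ranged from -0.23 to 0.32. Of all 19775 genes, 14.1% were called higher and 19.3% lower (33.4% in all), with a median of -0.01. The list's median was -0.04. In medium the means of these genes ran from 3.71 for CEACAM8 to 5.83 for CEACAM19, around the median of all values, 4.75. Without detection calls, whether they were expressed is unknown, so 0 calls at this level does not show how they responded.

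Of 28 measured signalling partners and regulators of CEACAM genes, limma called 9 lower and 2 higher at 25 µg/mL (39.3%, against 33.4% of all genes), with a median of -0.08. SP1, a zinc-finger activator that binds GC boxes, fell by 0.72 on the log2 scale (SE 0.10, limma adjusted p = 3.69e-05), and SMAD4, the shared mediator of TGF-beta signals, fell by 0.71. PTPN6, the SHP-1 phosphatase, had a mean of 7.24 in medium and 6.75 at 25 µg/mL, 1.40-fold lower. FYN, a SRC-family kinase, was 1.70-fold higher, a difference of 0.76 that was 0.15 under poly-A scaling. The sign was the same on 3 of 4 SP1, 4 of 5 SMAD4 and 4 of 5 FYN probe sets.

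Among 28 measured genes of other immunoglobulin-type and epithelial adhesion molecules, 4 were called higher and 6 lower (35.7%, against 33.4% of all genes), with a median of -0.02. MCAM, an endothelial and melanoma adhesion molecule, was 1.54-fold lower by its brighter probe set, and its dimmer one differed the other way. The hyaluronan receptor gene CD44 was 1.46-fold and the neural adhesion gene L1CAM 1.47-fold higher, with differences of 0.55 and 0.56, against -0.06 and -0.05 when scaled on poly-A controls. CADM1, 1.39-fold lower by its brightest probe set, had 3 of 6 probe sets of that sign.

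Genes of other GPI-anchored surface proteins and of anchor attachment were called in 57.1% of cases, 13 lower and 3 higher of 28, with a median of -0.24. Over all genes 33.4% were called, 19.3% lower and 14.1% higher, with a median of -0.01. ALPI, intestinal alkaline phosphatase, was 2.61-fold lower and EFNA1, an ephrin ligand, 2.47-fold lower. The glypican gene GPC1 was 2.17-fold higher, a log2 difference of 1.12 that was 0.51 under poly-A scaling, and the prion protein gene PRNP 1.57-fold higher, a difference of 0.65 that was 0.04. CEACAM6, which shares the anchor type, was higher where most called members of this list were lower; no test of this contrast between gene and list was made.

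Of 26 measured surface genes of mature colonocytes, limma called 5 lower and 1 higher (23.1%, against 33.4% of all genes), with a median of -0.08. Their means in medium ran from 3.49 for CLCA4 to 13.05 for LGALS3, and some lay below the median of all values, 4.75. Without detection calls, whether those were expressed is unknown, and their part in the share called was not tested. GUCA2A, the guanylin peptide gene, was 3.01-fold lower, the mucin gene MUC13 2.06-fold lower and the sulphate transporter gene SLC26A2 1.85-fold lower. PLAC8 was 2.66-fold higher, a log2 difference of 1.41 that was 0.80 under poly-A scaling.

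Of 15 Caco-2 enterocyte markers, 11 had means above the median of all values, with EPCAM at 13.20 and the microvillus gene VIL1 at 10.38 in medium, while SI, sucrase-isomaltase, lay at 3.56, below it. At 25 µg/mL, where CEACAM6 was higher, limma called 1 of the 15 higher and 6 lower (46.7%, against 33.4% of all genes), with a median of -0.17. The fatty acid binding gene FABP1 was 3.02-fold lower and VIL1 1.41-fold lower. Log2 of the list's summed level was 15.33 to 15.42 in medium and 15.30 to 15.37 at 25 µg/mL. Unlogged values were summed, so bright genes weigh most, such as KRT18 (13.71 in medium, 14.03 at 25 µg/mL). Dimmer genes such as FABP1 (8.06 and 6.47) weigh little, and the sum does not show their fall. The part of these markers in the CEACAM6 difference was not tested. Some CEACAM genes are also granulocyte genes, and the granulocyte markers MPO, ELANE and FCGR3B lay at 4.29, 3.87 and 3.51 in medium, all below that median. Of 12 measured granulocyte and leukocyte markers, 3 had means above that median, CSF3R (5.98 in medium), CD14 (5.93) and CEACAM3 (5.36), and 0 were listed at 0. At 25 µg/mL limma called 0 of the 12 higher and 1 lower (8.33%, against 33.4% of all genes). The called gene was CD14, with a log2 difference of -0.71, and its part in the summed level was not tested. Log2 of the summed level of the 12 was 8.34 to 8.43 in medium, 8.28 to 8.34 at 2.5 µg/mL, 8.27 to 8.36 with ions and 8.14 to 8.21 at 25 µg/mL, where CEACAM6 was highest. Of 8 fibroblast markers, 2 were called higher and 2 lower (50%, against 33.4% of all genes). COL3A1 differed by -1.85 and LUM by -0.90 on the log2 scale, PDGFRA by 0.80 and COL1A2 by 0.34. Their summed level, which does not show these changes, lay between 10.05 and 10.43 over all arrays. Of 8 goblet and endocrine markers, 0 were called higher and 1 lower (12.5%), with a summed level between 8.20 and 8.49. Across probe sets, r was 0.992 to 0.996 between arrays of the same group and 0.978 to 0.981 between high-dose and medium arrays. The 24 poly-A control probe sets were 0.61 and the 18 hybridization controls 0.43 higher at 25 µg/mL than in medium. By array the poly-A mean was 6.21, 5.56 and 6.31 at 25 µg/mL and 5.31, 5.54 and 5.39 in medium, so replicate 2 at 25 µg/mL lay near medium. Under poly-A scaling the SE of the 211657_at difference was 0.24, against 0.09 with the deposited values. The part of these controls in the CEACAM6 difference was not tested beyond those scalings. In these bulk samples, fewer cells of a type and less RNA per cell cannot be told apart.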

How the data were processed

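RNA of 12 samples was hybridised to Affymetrix 3′ expression arrays, 1 array each. The authors deposited 1 log2 value for each probe set and array. The submitters' processing notes list RMA and Partek, with no version or setting given in the sources used here. The number of arrays limits the precision.

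All 54613 non-control probe sets entered 1 limma 3.58.1 model (R 4.3.3) with 4 group means, 8 residual and 7.37 prior degrees of freedom. Benjamini-Hochberg adjustment covered every probe set, with a threshold of 0.05. Gene lists used the 1-symbol probe set with the highest mean for each of 19775 genes, updated through gene IDs. The model was tested on simulated data. Members, lists and tests were chosen with earlier results of these data known. Named genes were all members, the 5 genes most correlated with each, and up to 4 called genes with the largest change per list. Promoters (RefSeq, GRCh38.p14) were aligned globally with biopython 1.88. Alternatives covered scaling, dim probe sets, probe sets per gene, the variance model, the threshold and leaving out each array. Probe sets were ranked by mean to take 1 per gene, and levels of different probe sets were set against each other within arrays only for the shift of their ratio between groups. Replicates were numbered in accession order.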

Additional observations from a re-analysis of the deposited data

How the results depend on the processing

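The 2 CEACAM6 calls at 25 µg/mL held under the quantile, median-centring, dim-filter, 1-symbol, trend, unmoderated, array-weight, 2-group and adjusted p under 0.01 alternatives. Leaving out each array kept 2 called higher and 0 lower. The differences then ranged from 0.47 to 0.59 for 211657_at and from 0.33 to 0.47 for 203757_s_at. With 1 probe set per gene, or with probe sets averaged by gene, 1 of 4 genes was higher in place of 2 of 12 probe sets, and 1 gene each had groups that did not overlap between 2.5 µg/mL and ions and between 2.5 µg/mL and medium; the cause is the smaller number of features.

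Poly-A and hybridization scaling each left 0 members higher and 6 of 12 lower, where 66.2% (poly-A) and 59.1% (hybridization) of all probe sets were lower. They gave -0.060 for CEACAM6 211657_at (poly-A; 0.13 with hybridization controls), -0.20 and -0.00903 for 203757_s_at, and -0.59 and -0.40 for CEACAM1 206576_s_at, from 0.03. Of 124 related-list genes, 10 were higher and 33 lower with the deposited values. Under each scaling 2 were higher, with 95 lower (poly-A) or 86 lower (hybridization). Of all probe sets, 0.917% were then higher and 66.2% lower (poly-A), or 2.59% and 59.1% (hybridization), so most features moved the same way. At an adjusted p under 0.01, 6 of the 124 were higher, against 8.38% of all probe sets. Poly-A scaling left 1 member without overlap between 2.5 µg/mL and medium. Each scaling subtracts the control shift from every probe set.

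Leaving out 1 array, members without overlap ranged from 2 to 4 between 2.5 µg/mL and ions (4 without ion replicate 1). They ranged from 2 to 5 between 2.5 µg/mL and medium (5 without medium replicate 3 or 2.5 µg/mL replicate 3). Between ions and medium they ranged from 0 to 2 (1 without medium replicate 1, 2 without medium replicate 2 or ion replicate 1). Groups of fewer arrays separate more readily. The share of all probe sets was not computed for these reduced sets, so the rises are not read as results about the members. Related-list counts ranged from 7 to 12 higher and from 26 to 34 lower of 124 genes. Of all probe sets, 10.3% to 13.3% were called higher and 11% to 14.2% lower in the same settings. No paired analysis was possible because the labels give no replicate numbers, and those used here are in accession order. Without detection calls, dim CEACAM7 has no stated background.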
